A study of Mus musculus with 24 samples.

Results

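The Mir302 and Mir367 cluster is a group of 5 microRNA genes, Mir302a, Mir302b, Mir302c, Mir302d and Mir367, which were taken by gene symbol from the 55335 genes of a mouse small RNA count table. The 5 genes lie on the plus strand of chromosome 3 within 580 bases (GRCm38, 127545228 to 127545807), in the order Mir302b, Mir302c, Mir302a, Mir302d and Mir367. Gaps of 61, 65, 59 and 43 bases separate them. All 5 lie inside an intron of Larp7, a protein-coding gene on the opposite strand (127536714 to 127553349), and none overlaps an annotated exon of another gene. Mir302b spans 127545228 to 127545301, Mir302c 127545363 to 127545430, Mir302a 127545496 to 127545564, Mir302d 127545624 to 127545689, and Mir367 127545733 to 127545807.

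A microRNA gene is transcribed as part of a longer primary transcript that is cut into a hairpin and then into short mature strands. A mature strand, loaded into an Argonaute protein, pairs with messenger RNAs mainly through its seed, bases 2 to 8 from the 5′ end, and lowers their stability and translation. The miR-302 and miR-367 strands are known from a shared primary transcript in pluripotent cells, where OCT4, SOX2 and NANOG bind the promoter, and they are abundant in epiblast-like and human pluripotent cells and silenced on differentiation. The Mir290 to Mir295 cluster is the dominant group in naive mouse embryonic stem cells, and its genes Mir291a, Mir294 and Mir295 share the main miR-302 seed. Its most counted genes here, Mir293 (20928 counts) and Mir292 (9248), are not among the genes with that seed.

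The sequences below show which products of the cluster could act on the same messages. They come from RefSeq (GRCm38.p6), run 5′ to 3′, and have the seed in capitals. The 5′ arms of Mir302b, Mir302c and Mir302d have the same seed, that of Mir302a another.
miR-302b-5p: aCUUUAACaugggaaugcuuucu
miR-302c-5p: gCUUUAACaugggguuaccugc
miR-302d-5p: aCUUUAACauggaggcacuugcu
miR-302a-5p: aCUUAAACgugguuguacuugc
The 3′ arms of Mir302b and Mir302d share the seed AAGUGCU, and that of Mir302c has the same letters 1 base earlier.
miR-302b-3p: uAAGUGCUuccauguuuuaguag
miR-302d-3p: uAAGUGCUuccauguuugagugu
miR-302c-3p: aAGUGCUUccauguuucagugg
Both arms of Mir367 have other seeds, and that of the 3′ arm is the seed of the miR-25 and miR-92 group.
miR-367-5p: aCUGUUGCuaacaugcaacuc
miR-367-3p: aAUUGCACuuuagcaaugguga
The mature strands of Mir302b and Mir302d differ at 3 of 23 positions in the 3′ arm and at 6 of 23 in the 5′ arm. The strand miR-302a-3p is named only. The hairpin of Mir302b is shown whole because this gene took most of the cluster's counts, with both mature arms in capitals (chr3:127545228-127545301, plus strand).
Mir302b hairpin: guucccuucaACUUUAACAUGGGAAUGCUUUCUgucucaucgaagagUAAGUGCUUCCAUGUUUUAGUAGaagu
Counts were given per gene, so the 2 arms of a hairpin, and mature strand and precursor, cannot be told apart. Across the annotated hairpins, 1 stretch of 20 bases in Mir302b also occurs in Mir302a, and no stretch of that length in the other 3 members occurs in another annotated gene.

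Small RNA was sequenced from mouse embryonic stem cells (mESC), kept with leukemia inhibitory factor over feeder fibroblasts, and from adherent neural progenitor cells (NPC) derived from them and kept with FGF and EGF. Per the labels, each cell type came in 6 Htt genotypes: an Htt knockout (KO), wild type (WT), and 4 heterozygous knock-in lines, Q20, Q50, Q92 and Q111, named for the CAG repeats in 1 Htt allele. The growth protocol gives 89 repeats for the line whose sample titles give 92. With 1 line per repeat length and 2 libraries per group (24 libraries in 12 groups), a repeat length cannot be told apart from its line, and since nothing states that libraries of a group came from separate cultures, p-values measure only the spread between these libraries, which may be technical.

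Total counts ran from 642384 to 2360434 in mESC libraries and from 342022 to 682113 in NPC libraries. A count of 0 allows up to 3 counts, which by library is 1.27 to 8.77 counts per 1e6 counts (CPM), and these limits cover counting error only. The labelled cell types matched their markers: Nanog had 4 to 16 counts in every mESC library and 0 in every NPC library. The 10 neural progenitor mRNAs summed to 8.59 to 20.1 CPM in mESC libraries and 95.6 to 347.1 in NPC libraries. The 6 with enough counts to be tested were all called higher in NPC, where 299 of 904 genes (33.1%) were. Their median was 5.13 on the log2 scale beside 0.05 over all genes tested. These 6 passed the filter on low counts through the NPC libraries, so the direction of their calls is not read as support. The Q20 NPC libraries stood apart from the other NPC libraries, as described with the NPC values. The marker sums above and all CPM below are counts scaled to library totals adjusted by TMM, a scaling to the bulk of genes.

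The cluster received 3272 counts in all, 5.58% of the counts on microRNA genes. Mir302b held 3059 of them, Mir367 130, Mir302a 40, Mir302c 31 and Mir302d 12. Mir302b had a count in 15 of the 24 libraries and Mir302d in 6. Only Mir302b and Mir367 had enough counts to pass the filter on low counts in mESC, and in NPC only Mir302b passed. Without the Q20 libraries, Mir367 did not pass in mESC or over both cell types, and Mir302b did not pass in NPC. Any call of Mir367, or of Mir302b within NPC, thus follows in part from how the gene passed and is not read as support. The other members were described by their values.

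In mESC, the cluster was high in the Q20 line and low to intermediate in the other 5 genotypes. Mir302b stood at 752 and 738 CPM in the Q20 libraries, from 1049 and 1122 counts. It reached 127.3 and 40.6 CPM in Q111, 76.0 and 40.9 in Q50, and 39.0 and 29.4 in Q92. In WT it had 24.9 and 2.92 CPM, from 45 and 3 counts, and in KO 8.87 and 2.09 CPM, from 17 and 2 counts. Both Q20 libraries lay above all 10 others, and replicate 1 of Q20 was 5.91 times higher than the closest library, replicate 1 of Q111. By group means ± SD (n = 2 each) the order was Q20 (745 ± 9.69), Q111 (83.9 ± 61.3), Q50 (58.4 ± 24.8), Q92 (34.2 ± 6.74), WT (13.9 ± 15.6) and KO (5.48 ± 4.79). The values of the neighbours Q111 and Q50 overlapped, as did those of WT and KO, while the other neighbours in that order did not.

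**Figure D1:**
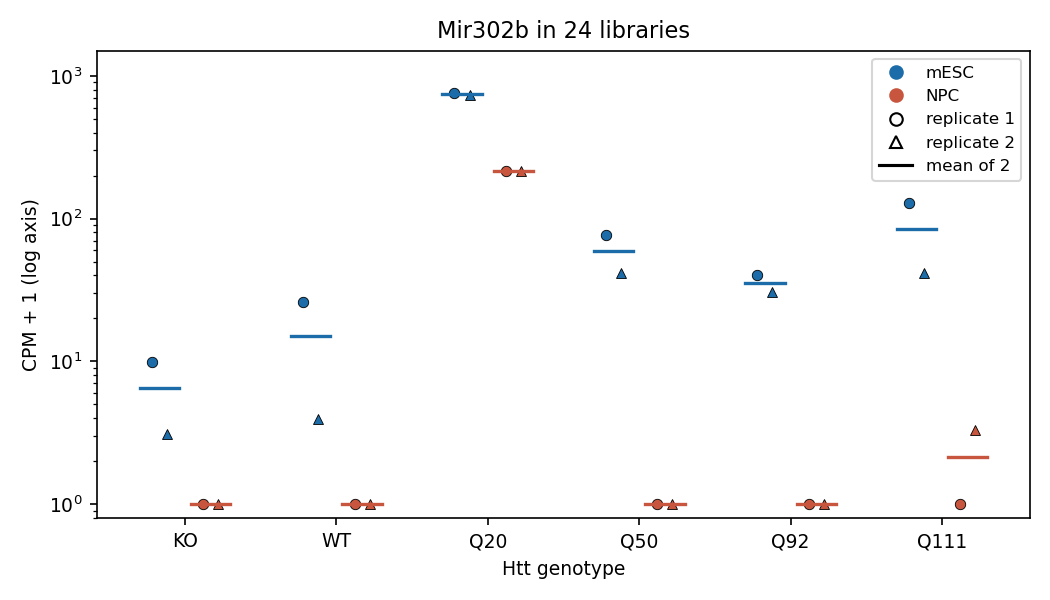
Mir302b in each of the 24 libraries, as CPM + 1 on a log axis, by Htt genotype and cell type; the bars mark the mean of 2 libraries. The Q20 libraries are highest in both cell types, at 738 to 752 CPM in mESC and 213.2 to 216.2 in NPC, and 9 of the other 10 NPC libraries are at 0.

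Mir367, whose 3′ strand has the miR-92 seed, had the same highest group at a lower level. Its CPM were 25.1 and 21.7 in Q20, 9.95 and 1.41 in Q50, 6.17 and 3.06 in Q111, 2.77 and 0 in WT, 1.98 and 0 in Q92, and 0 in both KO libraries. The Q20 values lay above all others, and those of WT, Q92 and KO came from at most 5 counts in a library.

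The 3 remaining Mir302 genes followed at the edge of detection. Mir302a had 16 and 8 counts in Q20 mESC, 6 and 1 in Q111, 1 and 1 in Q50, and 0 in the KO, WT and Q92 libraries. Mir302c had 7 and 15 counts in Q20, 2 and 1 in Q111, 1 and 1 in Q50, and 0 in the same 3 genotypes. Mir302d had 3 and 4 counts in Q20, 0 and 2 in Q111, 1 and 0 in KO, and 0 elsewhere in mESC. In CPM, each of these genes was higher in both Q20 libraries than in any other mESC library. For Mir302d this order is not established. Its 2.15 and 2.63 CPM in Q20 lie below the 4.23 CPM that a count of 0 allows in replicate 2 of Q50. Pooled over libraries, Mir302a was 12.8 times higher in Q20 mESC than in the other mESC (exact 95% counting interval 5.75 to 31.3), Mir302c 21.2 times (7.82 to 71.5) and Mir302d 11.2 times (2.56 to 67.2). These intervals cover counting error and not the spread between libraries.

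**Figure D2:**
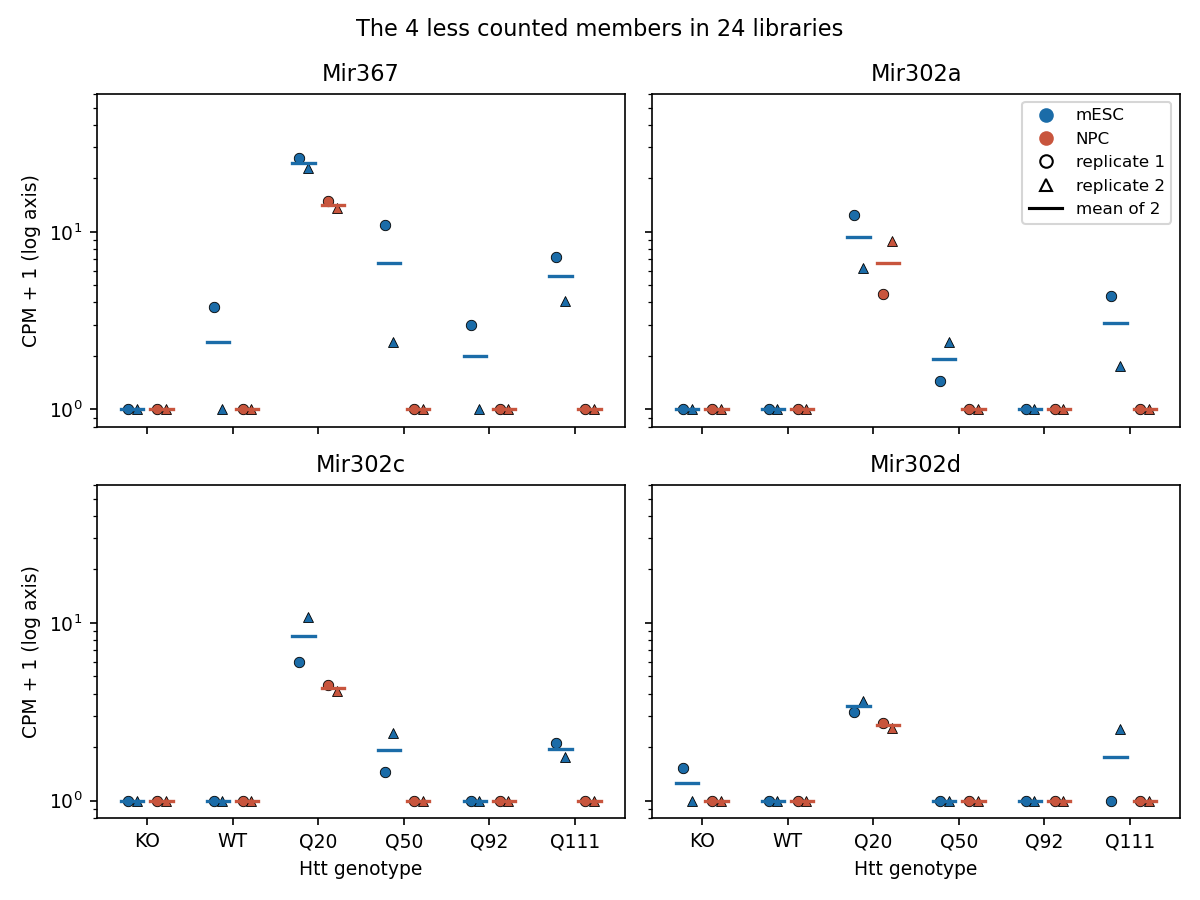
Mir367, Mir302a, Mir302c and Mir302d in the 24 libraries, as CPM + 1 on a log axis, with the mean of 2 libraries as a bar. In each panel the Q20 libraries are highest in mESC, and no other genotype has a count in NPC.

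In the comparison of Q20 with the mean of the other 5 genotypes in mESC, Mir302b was higher by 4.81 ± 0.48 on the log2 scale (SE; edgeR quasi-likelihood, adjusted p = 6.22e-05). Mir367, which passed the filter through the Q20 libraries, was at 4.04 ± 0.60 (adjusted p = 0.00742). The background was 0.34%, 6 of 1766 genes called. The other 4 genes called were Dnmt3b, a DNA methyltransferase used as a marker of primed epiblast (2.34 ± 0.40), and Mir409, Rian and Mir127 from the imprinted Dlk1-Dio3 region (1.58 to 1.64). Dnmt3b, with 0 to 12 counts in the other mESC libraries, also passed the filter through the Q20 libraries, so its call is not read as support. Of the 7 primed epiblast mRNAs listed, 1 other was tested, Otx2, which was not called (-0.65 ± 0.66), and Fgf5 had 0 counts in both Q20 mESC libraries. Mir302b kept its call in all 18 alternatives run, at 4.33 to 5.29. Mir367 lost it without either Q20 library (edgeR adjusted p = 0.126 without replicate 1 and 0.0541 without replicate 2). With every gene tested and no filter on low counts, 15 of 17642 genes were called. Mir367 (4.05 ± 0.54, edgeR adjusted p = 7.08e-10), Mir302a (5.06 ± 0.80, edgeR adjusted p = 1.49e-06) and Mir302c (5.12 ± 0.83, edgeR adjusted p = 3.30e-06) were among them. Mir302d was not (3.78 ± 1.11, edgeR adjusted p = 0.364).

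Against WT alone, Q20 was the genotype with a member called in mESC. Mir302b was 5.72 ± 0.92 higher on the log2 scale (edgeR adjusted p = 0.0249), and it was the 1 gene of 1766 called, a background of 0.0566%. That call was lost without WT replicate 2 (4.90, edgeR adjusted p = 0.204), without Q20 replicate 1 (5.64, adjusted p = 0.0672) and without Q20 replicate 2 (5.81, adjusted p = 0.0536), and the change was 8.06 without WT replicate 1. Mir367 stood 3.79 ± 0.88 higher and was not called (edgeR adjusted p = 0.200), but it was called with the replicate number as a block (3.99, adjusted p = 0.000261).

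No member was called for KO, Q50, Q92 or Q111 against WT in mESC, and the background was 0% in each, with 18, 47, 47 and 66 of 1766 genes at an unadjusted p under 0.05 by edgeR. The DESeq2 Wald test called 0, 0, 0 and 1 genes and none of the members. Mir302b differed from WT by -1.20 ± 0.87 in KO, 2.07 ± 0.81 in Q50, 1.26 ± 0.81 in Q92 and 2.42 ± 0.81 in Q111 (log2 ± SE). These values rest on which WT library is kept: without WT replicate 1, which had the 45 counts, they were 1.14, 4.38, 3.59 and 4.76, and without WT replicate 2 they were -2.03, 1.21, 0.45 and 1.58. Leaving out replicate 1 of the line itself gave -2.83 in KO, 1.21 in Q50 and 1.18 in Q111. With the replicate number as a block, Mir302b in Q111 was called (2.46, edgeR adjusted p = 0.0212), alone among these 4 comparisons. Mir367 differed from WT by 2.06 ± 0.96 in Q50, -0.35 ± 1.32 in Q92 and 1.33 ± 1.01 in Q111, and the Q50 value turned to -0.47 without Q50 replicate 1. Without WT replicate 1 the Mir367 changes were 8.07 in Q20, 6.31 in Q50 and 5.61 in Q111, and without WT replicate 2 they were 3.04, 1.28 and 0.56.

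**Figure D3:**
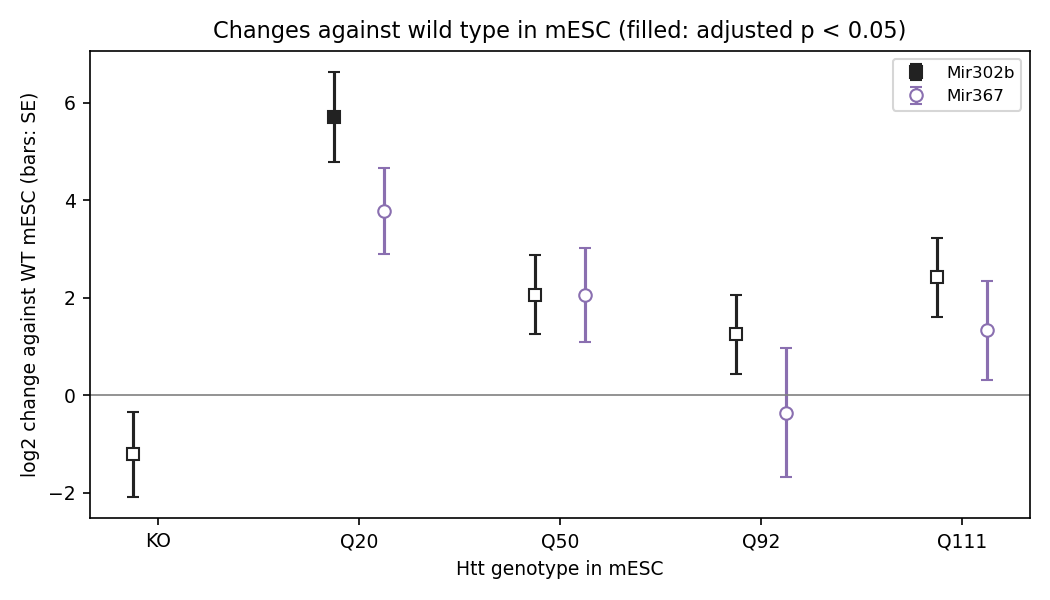
Log2 change of Mir302b and Mir367 against WT in mESC, with SE bars; filled symbols mark an adjusted p under 0.05 (edgeR). Mir302b in Q20 (5.72) is the 1 filled symbol, and Mir367 in KO, which had no counts, is not drawn.

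Among the knock-in lines, the mean Mir302b level in mESC fell in the order Q20, Q111, Q50 and Q92, which is not the order of the repeat numbers. The slope over 20, 50, 92 and 111 repeats was -0.37 ± 0.08 per 10 repeats for Mir302b and -0.33 ± 0.07 for Mir367 on the log2 scale, and neither was called (edgeR adjusted p = 0.126 for both). No gene of 1487 was called, a background of 0%, with 48 at an unadjusted p under 0.05 by edgeR and 0 called by DESeq2. Both members were called with the replicate number as a block (edgeR adjusted p = 0.00537 and 0.00935). Both were also called without Q50 replicate 1 (edgeR adjusted p = 0.00127 and 0.0134), without Q50 replicate 2 (0.0132 and 0.0304) and without Q111 replicate 1 (0.000198 and 0.00439). Without the Q20 libraries the Mir302b slope was 0.042.

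Libraries with the same replicate number moved together in mESC apart from Q20. Mir302b was higher in replicate 1 than in replicate 2 in all 5 of those genotypes, by 3.14 times in Q111, 1.86 times in Q50 and 1.32 times in Q92. The summed Mir290 to Mir295 genes went the other way, at 0.389 to 0.614 of the replicate 2 level. In Q20 the 2 libraries were close, with a ratio of 1.02 for Mir302b. Within replicate 1, Mir302b was 752 CPM in Q20 and 8.87 to 127.3 in the other genotypes. Within replicate 2 it was 738 CPM against 2.09 to 40.9. Q20 was above every other genotype within each replicate number. Its libraries did not share the replicate difference of the others, so matching by number cannot remove a shared effect from this comparison. With the second replicates of the other 5 genotypes left out, a choice made after seeing the data, Mir302b kept its call against the other genotypes, Mir367 lost it (edgeR adjusted p = 0.0589), and so did Mir302b against WT (4.98, adjusted p = 0.0552).

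In NPC, the cluster was found almost entirely in the Q20 line. Mir302b had 123 and 138 counts in the Q20 libraries, which is 213.2 and 216.2 CPM. It had 1 count in replicate 2 of Q111 and 0 in the other 9 libraries. Mir367 had 8 and 8 counts in Q20 NPC, Mir302a 2 and 5, Mir302c 2 and 2, and Mir302d 1 and 1, and none of these 4 had a count in another NPC library. The 2 Q20 libraries were close to each other for Mir302b, with a ratio of 0.986.

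Against WT NPC, where both libraries were at 0, Mir302b in Q20 was at least 82.7-fold higher, taking 3 counts over the group as the limit. Against the other 5 genotypes in NPC the ratio of pooled CPM was 1076 (exact 95% counting interval 191.4 to 42662, since the other 10 libraries held 1 count). The members below the filter were at least 22.0-fold (Mir367), 9.62-fold (Mir302a) and 5.50-fold (Mir302c) higher in Q20 NPC than in the other NPC, on the same limit, and Mir302d had too few counts for a fold. The KO, Q50, Q92 and Q111 comparisons with WT in NPC set 0 or 1 counts against 0. Over the knock-in lines, Mir302b had 261 counts at 20 repeats and 1 count over the 6 libraries with longer repeats. The edgeR fits called Mir302b against WT, against the other genotypes and for the slope on repeat number, with backgrounds of 12.7%, 18.1% and 6.45%. The gene entered these fits through the Q20 libraries, so nothing is read from those calls, and the DESeq2 Wald test did not call the slope.

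Other transcripts differed in the same Q20 NPC libraries. The Mir290 to Mir295 genes, with 65 and 79 counts there, had none in the other 10 NPC libraries. Of 12 embryonic stem cell mRNAs, 3 had a count in Q20 NPC: Sox2 with 5 and 7 counts, also found in the other NPC, Pou5f1 (encoding OCT4) with 1 count in each library and Utf1 with 2 and 0. The other 9, with Nanog, Zfp42 and Tdgf1 among them, were at 0. Lin28a and Lin28b, which encode pluripotency-associated RNA-binding proteins, had 5 and 6 counts and 2 and 2 counts in Q20 NPC, and 0 in all 10 other NPC libraries. The summed level of the 12 mRNAs, most of it from Sox2, was 12.5 to 13.9 CPM in Q20 NPC, within the 4.57 to 15.6 CPM of the other NPC libraries and below the 40.9 to 69.1 CPM of Q20 mESC. Without Sox2 the sum was 1.57 to 5.20 CPM in Q20 NPC and 0 to 5.86 in the other NPC. Of 7 primed epiblast mRNAs, Dnmt3b (4 and 4 counts), Otx2 (4 and 2), Pou3f1 (1 and 1) and Fgf5 (0 and 1) had counts in Q20 NPC. Pou3f1 was also found in the other NPC, with 0 to 2 counts in a library, and Lefty1 had 1 count in replicate 2 of Q92 NPC. The sum of the 7 was 12.5 to 15.6 CPM in Q20 NPC and 0 to 4.57 in the other NPC.

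Neural genes were present in Q20 NPC but some were lower than in the other NPC. Of 6 neural progenitor mRNAs tested, Tnc, encoding tenascin C (-3.16 ± 0.42), and Olig2, encoding an oligodendrocyte lineage factor (-2.70 ± 0.72), were called lower (edgeR adjusted p = 3.09e-05 and 0.0149), where 27 of 441 genes (6.12%) were called lower. Of 10 neural microRNAs 4 were tested, of which Mir9-1, Mir181a-1 and Mir181a-2 were called lower by 1.67 to 2.54 on the log2 scale, and Mir9-3 was not. The median log2 change was -0.95 for the mRNAs and -1.80 for the microRNAs, beside 0.10 over all genes tested. The neural progenitor mRNAs summed to 95.6 to 133.5 CPM in Q20 NPC and 162.4 to 347.1 in the other NPC. Their part in the Mir302b level of Q20 NPC was not tested, and in such bulk libraries a few cells with a high level and many with a low one cannot be told apart.

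The comparison of NPC with mESC over all genotypes called both members tested as lower, with a background of 59%, 533 of 904 genes, and 25.9% called lower. Mir302b fell by 3.81 ± 0.51 (edgeR adjusted p = 2.07e-07) and Mir367 by 1.70 ± 0.54 (adjusted p = 0.00891) on the log2 scale. The additive model behind these values averages genotypes that did not behave alike. A contrast of group means put Mir302b at -6.18 and Mir367, which had groups at 0 in both cell types, at -3.17, and did not call Mir367 (edgeR adjusted p = 0.99977). Without Q20 mESC replicate 1 or 2 the additive Mir302b value was -4.60 or -4.63.

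In the 5 genotypes other than Q20 both members were called lower in NPC, with a background of 55.5% called and 24.6% called lower. Mir302b went from 626 counts over 10 mESC libraries to 1 count over 10 NPC libraries, a ratio of pooled CPM of 223.9 (exact 95% counting interval 40.0 to 8856; edgeR adjusted p = 8.23e-11). Mir367 went from 46 counts to 0 and was at least 5.48-fold lower (edgeR adjusted p = 0.00251). It entered this fit through the Q20 libraries, so its call is not read as support. Mir302a, Mir302c and Mir302d had 9, 5 and 3 counts in those mESC libraries and 0 in the NPC libraries.

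In Q20, 1 of the 2 members tested was called lower in NPC, with a background of 18% called and 6.19% called lower. Mir302b was -1.79 ± 0.57 (log2 ± SE, edgeR adjusted p = 0.0270), which left 28.8% of the mESC level. This call was lost with library totals in place of TMM (-1.20, edgeR adjusted p = 0.126), with DESeq2 (-1.91, adjusted p = 0.0595) and without any 1 of the 4 Q20 libraries (edgeR adjusted p = 0.0586 to 0.120). Mir367 was at -0.82 ± 0.74 and was not called (edgeR adjusted p = 0.476), with 56.4% of the mESC level left. The share left was 67.5% for Mir302a, 44.3% for Mir302c and 69.0% for Mir302d, from 7, 4 and 2 counts in NPC.

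The difference between these 2 cell-type effects was itself tested. It was 5.02 ± 0.97 on the log2 scale for Mir302b, a smaller drop in Q20 (edgeR adjusted p = 0.00146), and 3.54 ± 1.35 for Mir367, which was not called (adjusted p = 0.328). The background was 2.54%, 23 of 904 genes, among which Mir302b had the 9th smallest p. The Mir302b call held in all 30 alternatives run, at 3.97 with DESeq2 to 5.98 without Q111 NPC replicate 2, the library that held the 1 count. Since most NPC libraries outside Q20 had no count, the size of this difference depends on the prior count of the fit.

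The Mir290 to Mir295 genes, the other stem-cell cluster, gave another pattern in mESC. Their summed level was 1767 and 2045 CPM in Q20 mESC and 1076 to 3650 in the other mESC. None of 7 tested was called for Q20 against the other genotypes (median log2 change -0.56, beside -0.02 over all genes tested), where 0.34% of all genes tested were. In Q20 NPC 6.20% of their mESC level was left, against 30.3% for the Mir302 and Mir367 cluster. The pooled mESC to NPC ratio in Q20 was 16.1 (exact 95% counting interval 13.7 to 19.2) for the Mir290 cluster and 3.30 (2.92 to 3.74) for the Mir302 and Mir367 cluster. These percentages and ratios depend on the TMM scaling. By library totals alone, the Mir302 and Mir367 cluster had 282.9 and 284.1 CPM in Q20 NPC against 618.1 and 621.8 in Q20 mESC. The Mir290 cluster had 135.2 and 145.8 against 1373 and 1634. Counts of the Mir302 and Mir367 cluster per Mir290 cluster count were 0.450 and 0.380 in Q20 mESC, 2.09 and 1.95 in Q20 NPC, and 0.00064 to 0.128 in the other mESC. The Q20 NPC libraries were the 2 libraries with counts on both clusters in which the Mir302 and Mir367 cluster was the larger. As a share of all microRNA-gene counts, the cluster made up 18.6% to 20.5% in Q20 mESC, 23.0% to 23.5% in Q20 NPC, 0.0453% to 6.38% in the other mESC and at most 0.226% in the other NPC.

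**Figure D4:**
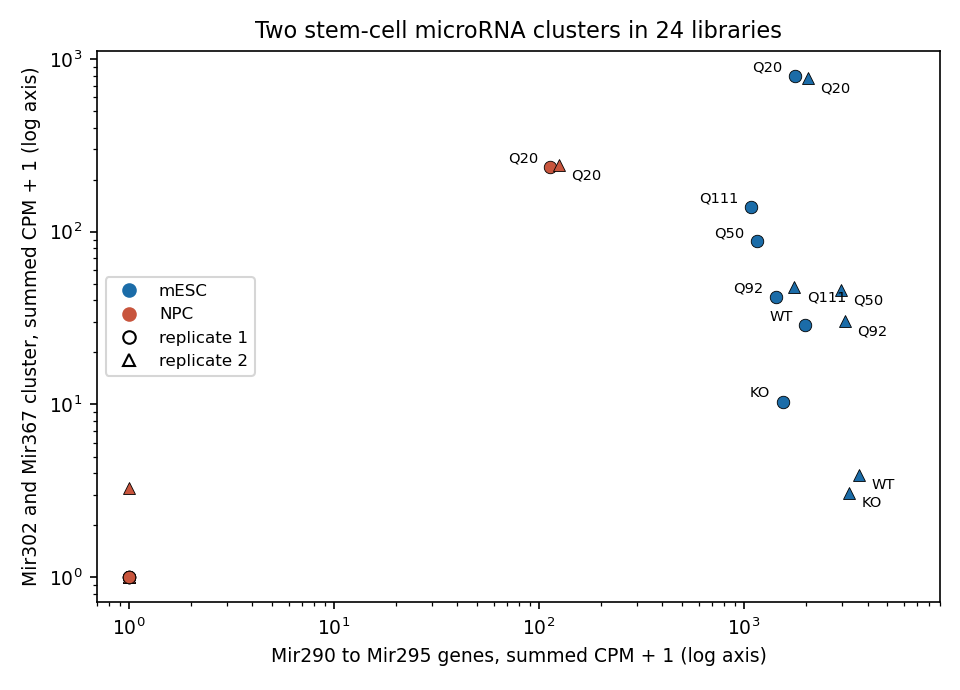
Summed CPM + 1 of the Mir302 and Mir367 cluster (vertical) against that of the Mir290 to Mir295 genes (horizontal) in 24 libraries, on log axes; the label gives the genotype. The mESC libraries span 1076 to 3650 CPM on the horizontal axis and 2.09 to 796 CPM on the vertical, and Q20 NPC is the 1 NPC group with counts on both.

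Within the cluster, Mir302b dominated wherever the cluster was counted. It made up 94.7% of cluster counts in Q20 mESC (2171 of 2292, exact 95% interval 93.7 to 95.6), 90.0% in Q20 NPC (261 of 290, 86.0 to 93.2) and 90.9% in the other mESC (626 of 689, 88.5 to 92.9). Mir367 made up 2.97% (2.31 to 3.75), 5.52% (3.19 to 8.81) and 6.68% (4.93 to 8.81) of counts in the same 3 sets. Scaled by gene length, pooled levels in Q20 mESC were 10066 CPM per kilobase for Mir302b, 311.1 for Mir367, 119.3 for Mir302a, 111.0 for Mir302c and 36.4 for Mir302d. The order of these per-length levels, with Mir302b first and Mir302d last, was the same in Q20 NPC and in the other mESC. In the 8 libraries with at least 4 counts on each, the per-length ratio of Mir302b to Mir367 ran from 7.74 in replicate 1 of Q50 mESC to 34.5 in replicate 2 of Q20 mESC. The genes were read from neighbouring hairpins of the same strand, and how evenly small RNA libraries capture different hairpins was not tested.

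**Figure D5:**
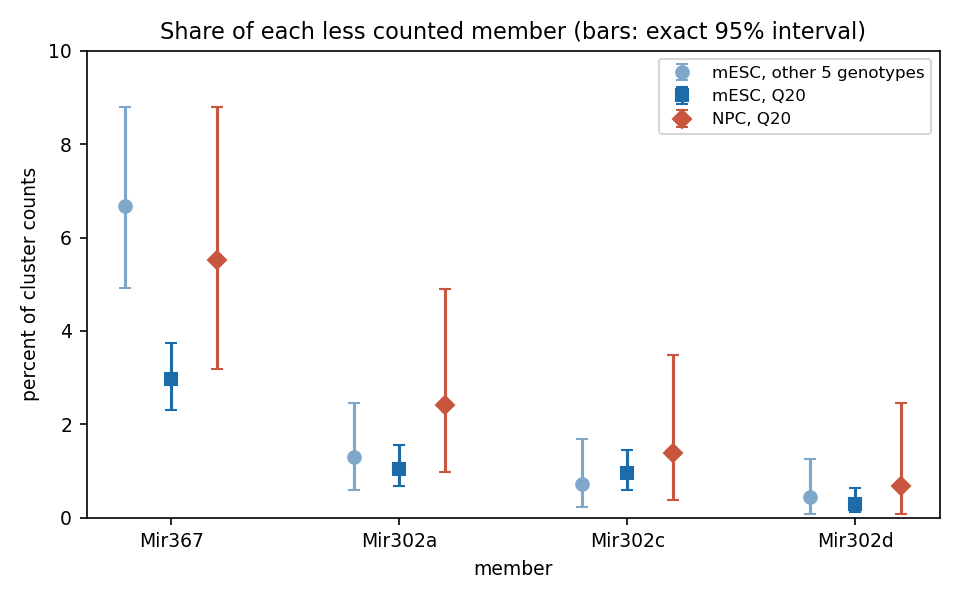
Percent of cluster counts on the 4 less counted members, pooled over the libraries of each set, with exact 95% intervals for counting error. Mir367 is at 2.97% in Q20 mESC, 5.52% in Q20 NPC and 6.68% in the other mESC; Mir302b, at 90.0% to 94.7%, is not drawn.

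The main gene outside the cluster with the seed of miR-302b-3p, Mir295, stood in another order to Mir302b in Q20 than in the other mESC. The seed AAGUGCU occurs in Mir295 (1580 counts), Mir291a (499) and Mir294 (84), which belong to the Mir290 cluster. In the other 10 mESC libraries, Mir295 had 1365 counts against 626 for Mir302b, which per length was 1412 against 604 CPM per kilobase, and it was the higher in 8 of the 10. In Q20 mESC the order was reversed in both libraries, at 1054 against 10066 CPM per kilobase, from 104 and 108 counts of Mir295. In Q20 NPC Mir295 had 2 and 1 counts where Mir302b had 123 and 138. The seed AUUGCAC of miR-367-3p also occurs in Mir92-2 (113 counts) and Mir363 (66), and in 4 genes with 0 to 13 counts. Of the 9 genes that share a seed, 5 were tested for Q20 against the other mESC and none was called, where 0.34% of all genes tested were. The 2 tested between cell types, Mir291a (-6.16 ± 0.46) and Mir295 (-7.50 ± 0.58), were called lower in NPC (edgeR adjusted p = 2.78e-12 and 5.87e-12), where 25.9% of all genes tested were. Both passed the filter through the mESC libraries, with at most 2 counts in an NPC library, so their direction is not read as support.

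Factors reported to bind the cluster's promoter were not called in Q20 mESC, where 0.34% of all genes tested were. Nanog (-0.86 ± 0.43), Sox2 (-0.45 ± 0.50) and Pou5f1 (-0.18 ± 0.57) were tested against the other genotypes and Tcf7l1 was not, on 4 to 19 counts in a Q20 library. Of 12 genes of microRNA processing, 7 were tested there and none was called (median log2 change 0.19, beside -0.02 over all genes tested), with Lin28b at 1.47 ± 0.72. With so few genes called, the absence of a call in either set says little about it. Between cell types, Ago1 and Ago2, encoding Argonaute proteins, were the 2 tested and neither was called, where 59% of all genes tested were.

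Of 13 reported targets of the miR-302 seed family, 3 had enough counts to be tested between cell types, and all 3 were called higher in NPC (median log2 change 3.06), where 33.1% of all genes tested were. They were Cdkn1a, encoding the cell cycle inhibitor p21 (2.96 ± 0.37), and the cyclin D genes Ccnd1 (3.06 ± 0.37) and Ccnd2 (5.20 ± 0.37). All 3 passed the filter on low counts through the NPC libraries, with at most 10 counts in an mESC library. Their shared direction thus follows in part from how they passed and is not read as support. Lefty1 and Lefty2, which encode Nodal inhibitors, were not tested and went the other way, with 49 and 42 counts over the mESC libraries and 1 and 0 over the NPC libraries. In Q20 NPC against the other NPC, Ccnd1 was called lower (-2.31 ± 0.60, edgeR adjusted p = 0.0129), with 1 and 6 counts against 3 to 37. It passed the filter there through the other NPC libraries, so this call is not read as support. Cdkn1a (-1.57 ± 0.57) and Ccnd2 (-1.25 ± 0.43) were not called (edgeR adjusted p = 0.0666 and 0.0547). The counts are fragments of messenger RNA in small RNA libraries, and how they relate to the level of the message was not tested.

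Larp7, the gene that holds the cluster in an intron, had 22 counts in all and 0 to 3 per library. It had 2 and 3 counts in Q20 mESC and 1 and 1 in Q20 NPC, and was not tested. Fibroblast genes did not follow the cluster in mESC: Fn1, encoding fibronectin and expressed in several cell types, had 15 and 24 counts in Q20 mESC and 6 to 52 in the other mESC. The fibroblast collagen genes Col1a1, Col1a2 and Col3a1 were at 0 in all 12 mESC libraries.

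The genes whose levels ran most like the summed cluster over the 24 libraries were Dnmt3b (Pearson r = 0.958 of log2 CPM), Mir411 (0.931), Mir409 (0.890), Gm24564 (0.876) and Mir341 (0.856), among 1426 genes with at least 100 counts. Mir411, Mir409 and Mir341 are microRNAs of the Dlk1-Dio3 region. These correlations share the step between cell types and the Q20 libraries, so they are a description. Dnmt3b had 18 and 32 counts in Q20 mESC, 0 to 12 in the other mESC, 4 and 4 in Q20 NPC and 0 in the other NPC. Over the 12 mESC libraries alone the 5 closest were Plxna1, a semaphorin receptor (0.931), Dnmt3b (0.893), Ddx3x, an RNA helicase (0.854), Gm9794 (0.854) and Mir411 (0.843). With a prior count of 0.5 in place of 2, Mir127 took the place of Mir341 in the list over 24 libraries, and the list over mESC kept the same 5 genes.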

How the data were processed

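Whole-number counts per gene for 55335 Ensembl mouse genes in 24 libraries were used as deposited by the authors, with no normalization. Libraries were single-end reads of 50 bases, per the labels. The submitters' processing notes name CASAVA 1.8, STAR, HTSeq and GRCm38.p6. Adapter trimming, strand and the treatment of reads with several matches are not given in the sources used here, and they bear on short, similar hairpins. The 4 columns named Q89 were taken as the line titled Q92, since the growth protocol gives 89 repeats. Identifiers were matched to GENCODE mouse release 21 (GRCm38): 55154 matched, and 57 of 25027120 counts were on unmatched rows.

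Tests used edgeR 4.0.16 in R 4.3.3 (glmQLFit, glmQLFTest, TMM, filterByExpr with a minimum count of 10 and total of 15), with Benjamini-Hochberg adjustment over all genes tested and a threshold of 0.05. The SE is the log2 change divided by the square root of F. NPC against mESC used genotype as a covariate over 24 libraries, with a term for Q20 NPC where Q20 is given apart. Within a cell type, 6 group means were fitted to 12 libraries, and slopes to the 8 knock-in libraries. The fits were tested on simulated data. The alternatives comprised library totals or DESeq2 size factors as the scaling, testing with no filter, DESeq2 1.42.0 as the test, a replicate block, 89 in place of 92 repeats, fits without Q20, a contrast of group means, leaving out each library, and, added after seeing the data, leaving out the second replicates of 5 mESC groups.

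The members, comparisons and gene lists were chosen with earlier results of these data known. Beyond the members, named genes were the 5 most correlated with the cluster, those sharing a seed with at least 50 counts, Larp7, and at most 4 genes with the highest counts per list; list genes named beyond these were chosen after their values were seen. Replicates of every group differed beyond sampling noise. The chi-square per degree of freedom was 3.16 in Q20 mESC, 60.3 to 202.5 in the other mESC groups and 3.76 to 94.4 in the NPC groups. Each library was counted as 1 sample, though such noise does not show that libraries came from separate cultures.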

Additional observations from a re-analysis of the deposited data

Results flagged for a closer look

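Mir302b had a cell-type effect that differed between Q20 and the other 5 genotypes by 5.02 on the log2 scale, which the test of the difference called (edgeR adjusted p = 0.00146). It fell from 626 counts to 1 count over 10 libraries each in the other genotypes, and from 2171 to 261 counts over 2 libraries each in Q20. Both Q20 NPC libraries show the retained level.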

How the results depend on the processing

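Over all comparisons, 323 recomputed counts of members called stayed within 1.5 times, 20 were higher and 18 lower. The 323 include counts of 0 that stayed 0, as in the KO, Q50, Q92 and Q111 comparisons with WT in NPC. Those comparisons set 0 or 1 counts against 0, so the tally does not measure stability. Members called changed as follows. For NPC against mESC, 1 in place of 2 was called with the contrast of group means, and 1 without the Q20 libraries, where Mir367 did not pass the filter. In the genotypes other than Q20 it was 1 without the second mESC replicates. For Q20 it was 0 in place of 1 with library totals and with DESeq2, and 0 to 1 leaving out each library. For Q20 against WT in mESC it was 3 in place of 1 without a filter, 0 with the first mESC replicates and 0 to 1 leaving out each library. For Q20 against the other mESC it was 4 in place of 2 without a filter, 1 with the first replicates and 1 to 4 leaving out each library. For Q20 against the other NPC it was 3 in place of 1 without a filter. The mESC slope called 2 in place of 0 without a filter and 0 to 2 leaving out each library. The NPC slope called 3 in place of 1 without a filter, 0 with DESeq2 and 0 without Q20. Over all genes, the fits with no filter called 5 of 17642 for Q20 against WT in mESC and 15 of 17642 against the other mESC. They called 62 of 14269 for Q20 against the other NPC, 2 of 16201 for the mESC slope and 50 of 13150 for the NPC slope. Values that changed sign were Mir302b in KO mESC (-2.83 to 1.14 leaving out each library), Mir367 in Q50 mESC (-0.47 to 6.31) and the Mir302b mESC slope without Q20 (0.042). The cause was not tested, except that more members can be called where no filter is applied.

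The replicate block called 2 members in place of 1 for Q20 against WT in mESC, 1 in place of 0 for Q111 against WT, and 2 in place of 0 for the mESC slope, and changed no other call. The share of all genes called with the block is not given here. The replicate numbers share no stated batch: replicate differences correlated by 0.408 to 0.516 in the 10 pairs of mESC groups without Q20, by 0.000144 to 0.0784 in the 5 with Q20, and above 0.1 in 4 of 15 NPC pairs. A block by number thus assumes for Q20 mESC a shared difference that its pairs did not show. The block calls that involve Q20 are therefore not read as support. Library totals moved the median of all genes by 0.327 for NPC against mESC, by 0.578 within Q20 and by -0.246 for Q20 against the other mESC. Depth limits Mir302a, Mir302c and Mir302d, which have at most 40 counts each.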
